A study of Mus musculus with 14 samples.

Results

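AGO2 binding groups were examined that lay in a 3′ UTR, carried at least 1 T-to-C conversion and held a 7mer match to the seed shared by the let-7-5p and miR-98-5p miRNAs. They are called let-7 groups here. There were 203 let-7 groups among 14217 converted 3′ UTR groups and 85458 groups of all kinds in the library labelled knockout (KO), and 269 among 19202 converted 3′ UTR groups and 66451 groups of all kinds in the library labelled wild type (WT). The rule used the annotation class, the conversion count and the group sequence, and neither the read number of a group nor any difference between genotypes. Groups on both sides of the conversion threshold can be named. The let-7 group with the fewest conversion events had 5 events in each genotype, and a further 39 KO and 45 WT 3′ UTR groups held a let-7 7mer with no conversion, the deepest being Plxnd1 with 122 reads in KO and Nceh1 with 101 reads in WT.

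The libraries came from C57BL/6 mouse bone marrow derived macrophages, which are grown from marrow in medium from L929 fibroblasts, a source of the growth factor CSF1. KO cells carried floxed Elavl1 alleles and LysM-Cre, a recombinase driven from the myeloid gene Lyz2, and WT cells carried the floxed alleles without Cre. The question of the series was whether AGO2 and miRNAs bind mRNA differently without ELAVL1, also called HuR, a protein that itself binds mRNA. AGO2 PAR-CLIP, in which AGO2 is crosslinked to RNA carrying 4-thiouridine and precipitated with an antibody, gave 1 library per genotype, mRNA sequencing gave 4 libraries per genotype (numbers 1 to 4), and small RNA sequencing gave KO 3, KO 4, WT 1 and WT 2. No PAR-CLIP difference therefore has a replicate check, and the small RNA genotypes cannot be told apart from the number sets. Elavl1 mRNA, counted over the whole gene, stood at 69.5 ± 6.13 CPM (counts scaled to library size) in KO and 63.5 ± 2.00 CPM in WT (SD, n = 4 each, log2 fold change 0.13, SE 0.13, edgeR adjusted p = 0.9999). Counts over a whole gene cannot show whether its floxed part was lost, so KO and WT are the libraries' labels throughout.

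The let-7 miRNAs are among the most conserved and most abundant small RNAs of differentiated cells, macrophages included. AGO2 holds the miRNA and exposes its seed, the short stretch near the 5′ end that pairs with sites in mRNA 3′ UTRs, and a bound mRNA is then repressed and often degraded. The family is known for restraining growth and oncofetal genes such as Hmga2, and for being blocked by LIN28 in stem cells. ELAVL1 binds U-rich and AU-rich stretches of 3′ UTRs and has been described both as a competitor and as a helper of miRNA binding.

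The mature family members are shown because every site below was chosen by their common seed. In each sequence, taken from RefSeq (GRCm38.p6), capitals mark bases 2 to 8.
let-7a-5p: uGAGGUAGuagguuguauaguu
let-7c-5p: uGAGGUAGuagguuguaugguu
let-7e-5p: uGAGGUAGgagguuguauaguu
let-7g-5p: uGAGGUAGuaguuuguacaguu
let-7i-5p: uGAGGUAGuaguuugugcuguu
miR-98-5p: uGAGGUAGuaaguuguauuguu
The members differ only outside the capitals, so a group cannot be assigned to one of them by its 7mer. A 7mer-m8 site pairs with bases 2 to 8 and reads CTACCTC, a 7mer-A1 site pairs with bases 2 to 7 and is followed by A (TACCTCA), and an 8mer holds both (CTACCTCA).

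The sites of the 12 most occupied shared loci are shown with the group sequence around them, because these few loci hold much of the let-7 signal. Sequences are from the deposited groups, 5′ to 3′ on the transcribed strand, limited to 30 bases, with mm9 coordinates of the window and capitals marking the match.
Plagl2 (7mer-m8, chr2:153055628-153055657, minus strand): attcagaaacacacttCTACCTCtttactg
Strn (8mer, chr17:79051080-79051108, minus strand): aaatggcctctctcatatCTACCTCActg
Crk (7mer-A1, chr11:75518535-75518564, plus strand): tttaatacatttttTACCTCActgtagctt
Oas2 (7mer-m8, chr5:121181369-121181398, minus strand): aatgtaaacaatatCTACCTCtcttaatgt
Pdgfb (7mer-m8, chr15:79827056-79827085, minus strand): tccggttcatttctCTACCTCcactctgtg
Tgfbr1 (7mer-A1, chr4:47427335-47427364, plus strand): tcaagagaccaaggtacattTACCTCAttg
Gatm (7mer-m8, chr2:122420935-122420964, minus strand): tggccgctaatatttaaccatCTACCTCtg
Tmem65 (7mer-A1, chr15:58616407-58616436, minus strand): taaactaatgTACCTCAtcattaactatac
Slc20a1 (7mer-m8, chr2:129037294-129037323, plus strand): ttccatgttcatctgtCTACCTCttaactg
Atp6v0a1 (8mer, chr11:100924695-100924724, plus strand): ccctcgccggCTACCTCAtgtactgtggat
Stx3 (8mer, chr19:11853336-11853361, minus strand): ccaaggcactgtatttCTACCTCAtg
Btg2 (7mer-A1, chr1:135973863-135973890, minus strand): ccaccgtaTACCTCAacctggggaactg
A further 5 windows are shown for a classic let-7 target and for the site with the lowest conversion rate. They also cover loci among those that differed most between the libraries, and a locus found in WT alone.
Hmga2 (7mer-m8, chr10:119800035-119800064, minus strand): cccactcctcaataCTACCTCtgaatgcta
Tet3 (8mer, chr6:83315311-83315336, minus strand): tataacCTACCTCAaatctgtcactg
Txn2 (7mer-m8, chr15:77745621-77745650, minus strand): tttatgtggtccttCTACCTCttgctgtga
Rab40c (7mer-m8, chr17:26019486-26019515, minus strand): gctggtgcttaactCTACCTCctgccctca
Fam33a (8mer, chr11:86937984-86938012, plus strand): taaaattctCTACCTCAacatttaaattg
Many windows end in G a few bases past the match. Among let-7 groups 77.3% in KO and 88.1% in WT ended in G, beside 78.1% in KO and 79.9% in WT of all converted 3′ UTR groups, so the ending is common to the groups of these libraries. The match lay toward the 3′ end of the group, with a median of 12 bases before and 6 bases after it in KO and of 14 and 7 bases in WT.

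Let-7 groups made up 1.43% of converted 3′ UTR groups in KO (exact 95% interval 1.24 to 1.64%) and 1.40% in WT (1.24 to 1.58%). Their number in KO was 0.755 times that in WT (95% interval 0.626 to 0.909), and all converted 3′ UTR groups stood at 0.740 times (0.724 to 0.757), so the let-7 number moved with the whole class. Groups of all kinds went the other way, at 1.29 times the WT number. These intervals treat numbers as Poisson counts and cover counting error only. Groups with a 7mer for miR-27a-3p were at 0.815 times (0.724 to 0.917), for miR-16-5p at 0.780 (0.681 to 0.893) and for miR-29a-3p at 0.821 (0.705 to 0.956), and all 3 intervals overlap that of let-7.

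By site type, 39 KO groups (19.2%) and 49 WT groups (18.2%) held an 8mer, 76 KO groups (37.4%) and 107 WT groups (39.8%) a 7mer-m8 without the A, and 88 KO groups (43.3%) and 113 WT groups (42.0%) a 7mer-A1 alone. The mix was thus alike in both genotypes within counting error. Median reads per group were 38 in KO and 40 in WT for 8mers, 39.5 in KO and 35 in WT for 7mer-m8 sites, and 29 in KO and 31 in WT for 7mer-A1 sites. A single group held a pair of matches, in the 3′ UTR of Gpr137b in WT with 25 reads.

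Let-7 groups held 25134 reads in KO and 36860 in WT, which is 1.73% in KO and 2.14% in WT of the reads in converted 3′ UTR groups. That share depended on 1 group: Vmp1, a gene whose 3′ end lies beside miR-21, carried 365850 reads in KO and 193858 in WT in a 3′ UTR group without a let-7 match, and without it the shares were 2.32% in KO and 2.42% in WT. The median let-7 group had 34 reads in KO (quartiles 16.5 and 83) and 35 in WT (18 and 86), against 21 in KO and 19 in WT for all converted 3′ UTR groups. The 10 deepest groups held 52.1% of let-7 reads in KO and 46.6% in WT, so totals follow few genes. PAR-CLIP of bulk cells cannot tell fewer bound copies per cell from fewer cells holding the RNA.

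Overlapping groups of the genotypes were merged into 338 loci in 320 named genes, 9 of them on chromosome 18. Of these loci, 153 had a converted 3′ UTR group in both genotypes, 62 in KO alone and 123 in WT alone. The shared share was 45.3%, beside 29.2% of all 25644 converted 3′ UTR loci. At 8 of the loci of KO alone and 14 of those of WT alone, the other genotype had a listed group that was unconverted or of another class. The shared loci held 95.3% of let-7 reads in KO and 91.6% in WT. There were 302 genes with 1 locus and 18 with 2.

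Plagl2, a zinc finger transcription factor of the PLAG family, had the deepest let-7 locus, with 2585 reads in KO and 3140 in WT, or 401 RPM in KO and 499 RPM in WT (reads scaled to the total of reads in all listed groups). Strn, a scaffold of the STRIPAK phosphatase complex, had 2174 reads in KO and 3137 in WT at an 8mer. Crk, an SH2 and SH3 adaptor protein, had 1518 reads in KO and 2354 in WT. All 3 loci were lower in KO by RPM.

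Oas2, an interferon-induced oligoadenylate synthetase, was the exception among the deepest loci, with 1929 reads in KO and 1559 in WT (299 RPM in KO and 248 in WT, ratio 1.21, 95% counting interval 1.13 to 1.29). Genes of growth factor signalling came next: Pdgfb, a platelet-derived growth factor chain, had 1105 reads in KO and 1279 in WT, and Tgfbr1, the type I TGF-β receptor, had 988 in KO and 1374 in WT. Metabolic and transport genes followed. Gatm, which makes the precursor of creatine, had 806 reads in KO and 1159 in WT, Slc20a1, a phosphate transporter, had 744 in KO and 930 in WT, and Atp6v0a1, a subunit of the proton pump of acid vesicles, had 559 in KO and 1000 in WT.

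Tmem65, which encodes a mitochondrial membrane protein, had 531 reads in KO and 1263 in WT, the lowest KO over WT ratio of the 12 (0.410, 95% counting interval 0.370 to 0.454). Stx3, a syntaxin of membrane fusion, had 619 reads in KO and 799 in WT, and Btg2, an antiproliferative protein that binds the CCR4-NOT deadenylase, had 545 in KO and 651 in WT. Among the 12 loci, 11 were lower in KO on the RPM scale.

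**Figure D1:**
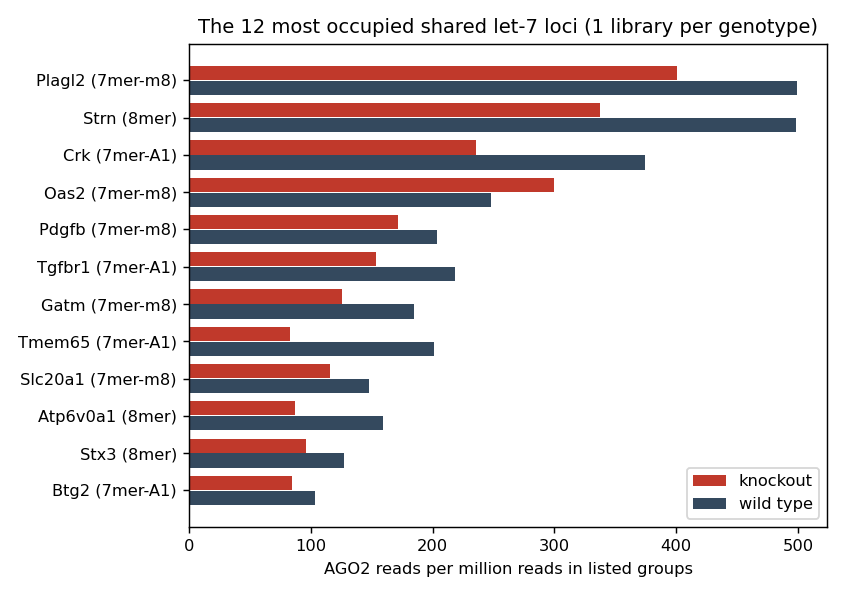
AGO2 reads in RPM (horizontal axis) at the 12 shared let-7 loci with the highest mean, with KO bars above WT bars and 1 library per genotype. Plagl2 is highest in both, with 401 RPM in KO and 499 in WT, and Oas2 is the locus where the KO bar is longer.

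At the 153 shared loci the KO over WT ratio of RPM had a median of 0.803 (log2 -0.32, quartiles -1.08 and 0.27). All 7495 shared converted 3′ UTR loci had a median log2 ratio of -0.26 (quartiles -0.94 and 0.47). Scaled instead to reads in converted 3′ UTR groups, both medians moved close to 0, to -0.03 for let-7 loci and 0.02 for all. The size of the let-7 median thus depends on which reads are taken as the total, while it was negative with both totals. The total of converted 3′ UTR reads includes the Vmp1 group, with 365850 of 1449651 reads in KO and 193858 of 1719975 in WT. Vmp1 takes a larger part of the KO total, so leaving it out would raise every KO over WT ratio on that scale. A scaling without that group was not run. KO was lower at 98 of the 153 let-7 loci (64.1%) and at 60.3% of all shared loci.

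A KO level at least 2-fold lower was found at 41 of the 153 let-7 loci (26.8%), beside 23.2% of all shared loci, and at least 2-fold higher at 15 (9.80%), beside 12.8%. With 1 library per genotype these are counts by size of the ratio and not of tested changes. The shares of the let-7 loci lay near those of the whole class. RPM of the 2 libraries correlated over the 153 loci with a Pearson r of 0.80 on the log2 scale and a Spearman rho of 0.72, given as a description since the loci share both libraries.

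The median log2 ratio was -0.45 over 29 shared 8mer loci, -0.38 over 61 7mer-m8 loci and -0.17 over 63 7mer-A1 loci, with quartiles of -1.14 and 0.15, -1.01 and 0.16, and -1.01 and 0.39. The 3 ranges overlap over most of their width. Shared loci made up 44.6% of the 65 8mer loci, 48.0% of the 127 7mer-m8 loci and 43.2% of the 146 7mer-A1 loci.

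**Figure D2:**
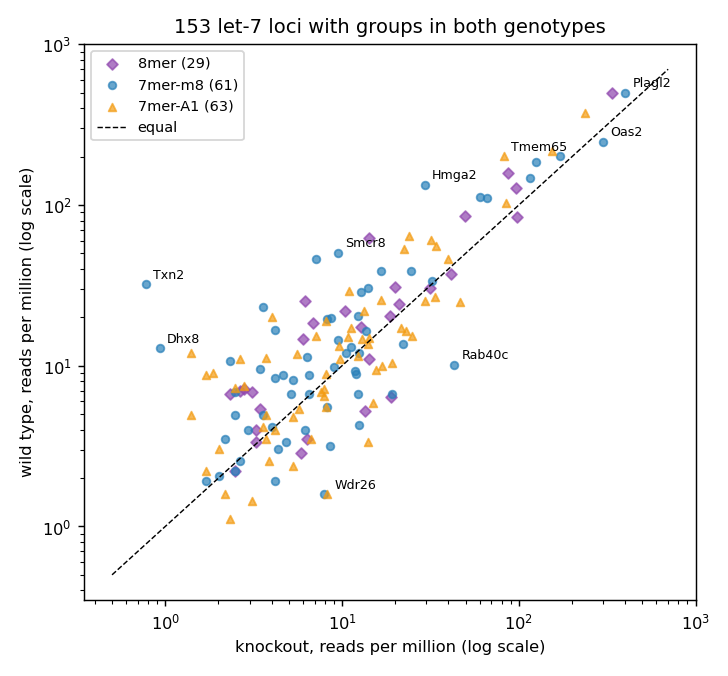
KO (horizontal) against WT (vertical) AGO2 reads in RPM at the 153 shared let-7 loci, both axes logarithmic, with symbols for the site type and a dashed line of equal values. Most points lie above the line, where WT is higher (98 of 153), and Txn2, Dhx8, Hmga2 and Rab40c stand far from it.

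Among shared loci with at least 50 reads in the libraries together, the largest KO over WT ratios were at Wdr26, a subunit of the CTLH ubiquitin ligase, with 53 reads in KO and 10 in WT, and at Sass6, a centriole assembly protein, with 51 in KO and 10 in WT. The KO group at Wdr26 overlapped the WT let-7 group but did not itself hold the let-7 match. Rab40c, a Rab GTPase with a SOCS box, rested on more reads, 279 in KO and 64 in WT (ratio 4.25, 95% counting interval 3.23 to 5.67). Pqlc2, a lysosomal exporter of cationic amino acids, had 122 reads in KO and 40 in WT. Bend4 had 91 in KO and 21 in WT, and Tmem164 had 80 in KO and 27 in WT. None of these 6 loci was among the 12 deepest.

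The smallest ratio was at Txn2, the mitochondrial thioredoxin, with 5 reads in KO and 202 in WT (ratio 0.024, 95% counting interval 0.0078 to 0.057). Dhx8, a splicing helicase, had 6 reads in KO and 81 in WT. Pygo2, a Wnt coactivator, had 9 in KO and 76 in WT, and Abcg1, a cholesterol efflux transporter of macrophages, had 23 in KO and 146 in WT. The locus named 1810074P20Rik (now Ufl1, the ligase of the ubiquitin-like UFM1) had 46 reads in KO and 291 in WT, and Smcr8, a partner of C9orf72 in autophagy, had 61 in KO and 317 in WT. The mRNA of Txn2 stood at 20.9 ± 5.77 RPKM in KO and 19.9 ± 3.66 in WT (SD, n = 4 each; RPKM is scaled to library size and gene length), and Rab40c stood at 13.2 ± 2.42 RPKM in KO and 12.7 ± 2.59 in WT. In both genes the RPKM ranges of the genotypes overlapped.

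Of the 203 KO let-7 groups, 141 (69.5%, exact 95% interval 62.6 to 75.7%) overlapped a converted 3′ UTR group of WT, and of the 269 WT let-7 groups, 146 (54.3%, 48.1 to 60.3%) overlapped one of KO. For all converted 3′ UTR groups the shares were 53.9% in KO and 39.6% in WT. In each genotype 134 let-7 groups met a let-7 group of the other, while 54 KO groups (26.6%) and 109 WT groups (40.5%) met no listed group at all. Of all converted 3′ UTR groups, 43.4% in KO and 56.6% in WT met none.

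The overlap rose with depth. Of groups with 5 to 19 reads, 39.7% in KO and 18.5% in WT were found in the other genotype, beside 35.1% in KO and 20.5% in WT of all converted 3′ UTR groups of that depth. With 20 to 99 reads the shares were 76.2% in KO and 57.8% in WT, beside 62.4% in KO and 50.2% in WT. With 100 reads or more they were 39 of 39 KO groups and 57 of 60 WT groups, beside 99.4% in KO and 97.2% in WT. Within the lowest and the highest depth the intervals of let-7 groups held the share of all groups, and at 20 to 99 reads the KO share lay above it and the WT interval (48.8 to 66.5%) held it.

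**Figure D3:**
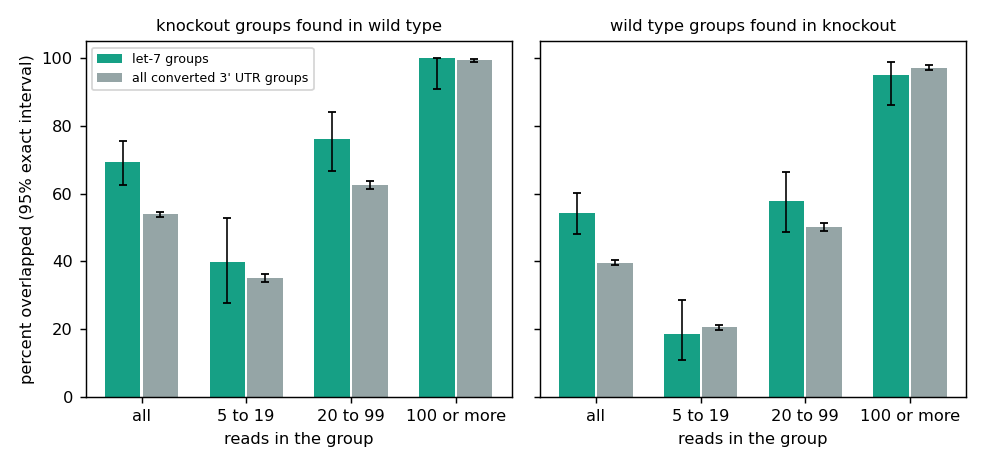
Percent of groups that overlap a converted 3′ UTR group of the other genotype (vertical axis, with exact 95% intervals) by reads in the group, for KO groups (left) and WT groups (right), with let-7 groups in green and all converted 3′ UTR groups in grey. The share climbs with depth in both sets, and at 100 reads or more it is 39 of 39 for KO and 57 of 60 for WT let-7 groups.

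The deepest let-7 loci with no listed group in the other genotype had at most 116 reads. In KO they included Cpeb4, a cytoplasmic polyadenylation factor, with 52 reads, Rbfox2, a splicing factor, with 44, Socs7, of the suppressor of cytokine signalling family, with 39, the zinc finger gene Zfp748 with 33 and Sh2b3, an adaptor that limits cytokine signalling, with 31. In WT they were Fam33a (now Ska2, of the spindle and kinetochore complex) with 116 reads, the transcription factor Gtf2i with 101, Pold3, a DNA polymerase δ subunit, with 84, Arl5b, an ARF-like GTPase, with 65, Ccnh, the cyclin of the CDK-activating kinase, with 63, and Cbx2, a Polycomb protein, with 62. A listed group needs at least 5 reads, so absence from the list is not absence of binding.

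Genes with a pair of let-7 loci often had 1 strong and 1 weak site. Tgfbr1 had 988 reads in KO and 1374 in WT at its 7mer-A1, and 135 in KO and 152 in WT at its 8mer. The weaker site of Stx3, a 7mer-A1, had 0 reads in KO and 13 in WT. In G3bp1, a stress granule protein, one 8mer had 92 reads in KO and 391 in WT and the other 20 in KO, where WT had a listed group of 16 reads that was not a converted 3′ UTR group. More even pairs were in Pbx2, a homeobox cofactor, with 24 reads in KO and 31 in WT at one site and 23 in KO and 31 in WT at the other. Fndc3a had 300 reads in KO and 156 in WT at one site and 88 in KO and 103 in WT at the other. Ptafr, the receptor for platelet-activating factor, had no listed group in KO and 44 reads in WT at its 7mer-m8. At its 8mer KO had a listed group of 22 reads that was not a converted 3′ UTR group, and WT had 11 reads in a converted one.

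Of 78 known let-7 targets in the files, 62 had a converted 3′ UTR group and 27 had a let-7 locus. Of all 21444 genes listed, 6270 had a converted 3′ UTR group and 313 had a let-7 locus. Hmga2, a chromatin protein of embryonic and tumour cells and a classic target, had 189 reads in KO and 843 in WT (29.3 RPM in KO and 134 in WT, ratio 0.219, 95% counting interval 0.186 to 0.256). Its mRNA was scarce, with 0.565, 0.533, 2.21 and 1.87 RPKM in KO 1 to 4 and 0.434, 0.363, 2.06 and 1.82 RPKM in WT 1 to 4. Numbers 3 and 4 were high in both genotypes, and the genotypes overlapped. Its locus ranked 16 of 338 by mean RPM while its mRNA ranked 277 of 313 by mean RPKM.

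Other targets fell into several roles. The 5-methylcytosine oxidases Tet3 and Tet2 had let-7 loci, Tet3 with 318 reads in KO and 540 in WT at an 8mer and 46 in KO and 97 in WT at a 7mer-A1. Tet2 had 148 reads in KO and 104 in WT. The Tet3 8mer was the sole let-7 group of each genotype under 20 conversion events per 100 reads, with 4.72 in KO and 2.22 in WT. Among kinases, Map4k3 had 129 reads in KO and 194 in WT, and Map3k1, an upstream kinase of the JNK pathway, had 22 in KO and 34 in WT, both at 8mers. For cell cycle genes, E2f5 had 90 reads in KO and 192 in WT, and Ccnd1 (cyclin D1) had 43 in KO and 22 in WT.

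Arid3a, a DNA-binding protein of the ARID family, had 160 reads in KO and 97 in WT at one site and 41 in KO and 71 in WT at the other, so its sites differed in direction. Eif4g2, a translation factor, had 79 reads in KO and 129 in WT. Nme6, of the nucleoside diphosphate kinase family, had 72 in KO and 82 in WT, and Zbtb5, a zinc finger protein, had 22 in KO and 60 in WT. Thbs1, the matrix protein thrombospondin, had 37 in KO and 34 in WT, and Acvr2a, an activin receptor, had 27 in KO and 25 in WT. Rdx, a linker of actin to the membrane, had 47 reads in WT at an 8mer, while its KO group there had 34 reads and no conversion. The remaining targets with a let-7 locus had at most 23 reads in either library and were found in a single genotype each.

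Of 43 genes of let-7 biogenesis and miRNA silencing, 30 had a converted 3′ UTR group and 4 had a let-7 locus, each in 1 genotype. The argonaute gene Ago4 (named Eif2c4 in the group tables) had 20 reads in WT, the ubiquitin ligase Trim25 had 22 in WT, the exonuclease Xrn1 had 26 in WT, and Cnot6l, a deadenylase, had 13 in KO. None of 12 macrophage markers and none of 26 markers of other marrow cells had a let-7 locus. A converted 3′ UTR group was found for only 10 and 2 of them. Over all genes, 313 of 6270 with such a group had a let-7 locus, so absence among so few carries little weight.

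Letters of other motifs were counted on the transcribed strand of the group. A 7mer of any of 15 other miRNA families of macrophages was held by 14 of the 203 KO let-7 groups (6.90%) and 33 of the 269 WT groups (12.3%), beside 22.1% in KO and 21.2% in WT of all converted 3′ UTR groups. The sets are not alike, since let-7 groups were chosen by their own 7mer, which fills part of a short group. Whether let-7 sites lie apart from other sites was not tested. A run of 5 U, one kind of sequence that ELAVL1 binds, was in 6.90% of KO and 8.18% of WT let-7 groups, beside 10.4% in KO and 11.2% in WT of all. AUUUA was in 8.87% of KO and 8.55% of WT let-7 groups, beside 6.84% in KO and 7.80% in WT of all. The let-7 intervals for AUUUA (5.34 to 13.7% in KO and 5.50 to 12.6% in WT) held the shares of all groups. Those for the U run also held the shares of all groups, with upper ends of 11.3% in KO and 12.1% in WT. The 27 shared loci with a U run or AUUUA had a median log2 KO over WT ratio of -0.48 (quartiles -0.91 and 0.27), and the 126 with neither had -0.29 (quartiles -1.08 and 0.25), so the ranges overlapped almost wholly.

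A let-7 7mer was also found in converted groups of other classes. In coding sequence 209 of 6649 KO groups (3.14%) and 235 of 8342 WT groups (2.82%) held one, above the 3′ UTR shares of 1.43% in KO and 1.40% in WT with intervals that do not overlap, and in introns 86 KO groups (2.40%) and 106 WT groups (3.18%) did. Between genes the share was below that of 3′ UTRs, at 51 of 8939 KO groups (0.571%, 0.425 to 0.749%) and 77 of 7391 WT groups (1.04%, 0.823 to 1.30%), where the WT interval overlaps that of 3′ UTRs.

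For the mRNA libraries, total counts ran from 8160789 to 25030262. Elavl1 itself had no let-7 locus. The macrophage marker Adgre1 stood at 3183 ± 396 CPM in KO and 3421 ± 600 in WT, and Csf1r, the CSF1 receptor, at 2390 ± 506 in KO and 2412 ± 740 in WT. The 12 macrophage markers summed to 14667 to 17668 CPM in KO and 21509 to 26136 in WT, with Lyz2, which carries the Cre, at 5067 ± 1004 CPM in KO and 12428 ± 2555 in WT. Of these 12 markers, 7 had a positive log2 fold change in edgeR without the block, and their median was 0.064. The 26 markers of other marrow cells summed to 69.7 to 152 CPM in KO and 52.7 to 99.4 in WT, with Ly6g at 0 in every WT library and Cd3d likewise, and 17 of the 18 tested had a positive log2 fold change with none called by edgeR. With the replicate block, Lyz2 was called lower in KO (log2 fold change -1.29, SE 0.10, edgeR adjusted p = 0.000472), and by DESeq2 too. Mpo, a marker of granulocyte precursors, was called higher by blocked DESeq2 (14.02 ± 11.5 CPM in KO and 7.15 ± 5.91 in WT, log2 fold change 0.90, SE 0.24, adjusted p = 0.0367) and not by blocked edgeR (adjusted p = 0.257). Their part in the results was not tested.

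Of the 320 gene names with a let-7 locus, 313 matched an Ensembl gene and 310 passed the filter on low counts. Their median level was 7.34 RPKM (quartiles 3.18 and 21.6), beside 5.43 RPKM for all 14019 genes tested and 7.68 for genes with any converted 3′ UTR group. The lysosomal protease gene Ctsb was the highest let-7 gene at 4668 RPKM. AGO2 reads followed the mRNA level only loosely, with a Spearman rho of 0.10 between mean RPM and mean RPKM over 328 loci, as a description across loci.

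By edgeR's quasi-likelihood test 0 of 310 let-7 genes passed an adjusted p of 0.05, as did 0 of 14019 genes (0%), and 1 let-7 gene was at an unadjusted p under 0.05, beside 0.578% of all genes. DESeq2 called 0 let-7 genes, beside 3 of 14019 (0.0214%). The median log2 fold change of let-7 genes was 0.0046 (quartiles -0.09 and 0.09), beside -0.0017 for all genes (quartiles -0.12 and 0.10), and 159 of the 310 were positive. The 6173 tested genes with any converted 3′ UTR group had a median of -0.0076 (quartiles -0.11 and 0.078), a spread near that of let-7 genes. Genes with a locus that held a let-7 group in both genotypes had a median of 0.015 over 126 genes. Genes with any let-7 locus that met no listed WT group had -0.013 over 50. Those with any that met no listed KO group had -0.010 over 105. These sets overlap, because genes such as Gatm and Stx3 have a shared locus and another in WT alone. Genes with an 8mer had 0.0080 over 62.

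With the replicate number as a block, edgeR again called 0 let-7 genes, beside 5 of 14019 (0.0357%), with 25 of the 310 (8.06%) at an unadjusted p under 0.05, beside 9.42% of all. DESeq2 with the block called 3 let-7 genes, all higher in KO, beside 82 of all genes (0.585%), 35 higher and 47 lower. Of the 6173 tested genes with any converted 3′ UTR group it called 46, 16 higher and 30 lower. With 3 let-7 calls, their direction carries little weight. The log2 ratio of AGO2 reads and the mRNA log2 fold change had a Pearson r of -0.08 over 149 shared loci and 0.0032 over the 117 with at least 20 reads in both, a description across loci.

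**Figure D4:**
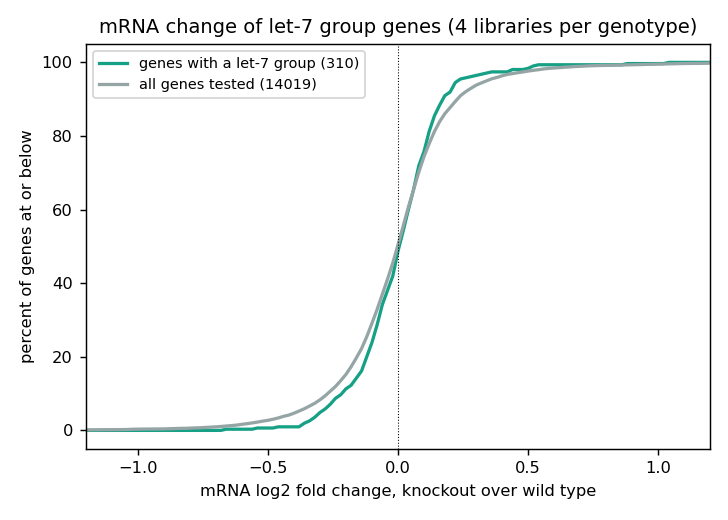
Cumulative percent of genes (vertical) at or below each mRNA log2 fold change of KO over WT (horizontal, edgeR, 4 libraries per genotype), for 310 genes with a let-7 group and for all 14019 genes tested. Both curves cross 0 near their middle, with medians of 0.0046 and -0.0017, and the let-7 curve is steeper. Genes with any converted 3′ UTR group, which are not drawn, had a spread near that of let-7 genes (quartiles -0.11 and 0.078).

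The 3 genes called by blocked DESeq2 are given in full. Ptafr, the receptor for the lipid mediator platelet-activating factor, had 65.0, 90.6, 177 and 164 CPM in KO 1 to 4 and 48.8, 75.1, 121 and 112 CPM in WT 1 to 4. Numbers 3 and 4 were high in both genotypes, each KO library was above the WT library of its number, and the genotypes overlapped. Blocked DESeq2 put the difference at 0.45 on the log2 scale (SE 0.10) at an adjusted p of 0.00229, with one of 0.0850 in blocked edgeR and 0.9999 in edgeR without the block. Its converted let-7 groups were in WT alone.

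Pdxk, the kinase that makes active vitamin B6, had 86.0, 100, 132 and 120 CPM in KO 1 to 4 and 59.7, 77.8, 103 and 99.9 CPM in WT 1 to 4. It too was higher in KO in all 4 pairs, with overlapping genotypes. Its log2 fold change was 0.37 (SE 0.10, blocked DESeq2 adjusted p = 0.0293), and blocked edgeR gave an adjusted p of 0.135. Its let-7 locus had 23 reads in KO and 0 in WT.

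Map3k1 had 170, 165, 156 and 149 CPM in KO 1 to 4 and 131, 139, 125 and 119 CPM in WT 1 to 4. All KO libraries were above all WT libraries. Its log2 fold change was 0.32 (SE 0.09, blocked DESeq2 adjusted p = 0.0491), and blocked edgeR gave 0.171. AGO2 reads at its 8mer were 22 in KO and 34 in WT.

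All 4 KO libraries lay above all 4 WT libraries for 2 of the 310 let-7 genes, beside 0.35% of all genes, and below them for 3, beside 0.435%. Above were Map3k1 and Ago4, an argonaute gene, which had 19.3 ± 1.07 CPM in KO and 14.3 ± 3.52 in WT. Below were Ccnh with 11.2 ± 0.398 CPM in KO and 13.7 ± 1.29 in WT, Slc10a7 with 12.2 ± 0.681 in KO and 14.7 ± 1.77 in WT, and Trub1, a pseudouridine synthase, with 6.82 ± 0.449 in KO and 7.80 ± 0.323 in WT (SD, n = 4 each).

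The other let-7 genes with the smallest p in the blocked edgeR fit did not pass its threshold, and their values are given as such. With positive log2 fold changes they were Ago4 (0.45, SE 0.13, adjusted p = 0.286), 0610030E20Rik (0.34), Oas2 (0.27), Thbs1 (0.28) and Gpr137b (0.25). Without the block these were 0.43, 0.34, 0.28, 0.23 and 0.21. With negative values they were the glycosyltransferase gene Ggta1 (-0.25), the growth factor Igf1 (-0.30), the nuclear import receptor Kpna1 (-0.28), the lamina protein Tmpo (-0.29), Ccnh (-0.28), Slc10a7 (-0.26), Lbh (-0.28) and the SUMO protease Senp5 (-0.24). Without the block they were -0.26, -0.37, -0.31, -0.31, -0.29, -0.27, -0.31 and -0.26. Igf1 held 24 AGO2 reads in KO and 0 in WT, and Ggta1 142 in KO and 86 in WT.

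The known targets as a list had 0 of 73 tested genes called by edgeR with or without the block, and 1 higher (Map3k1) by blocked DESeq2, with a median log2 fold change of 0.0020. The genes of biogenesis and silencing had 0 of 43 called by any of these fits and a median of 0.032. Plagl2 mRNA stood at 14.02 ± 2.76 RPKM in KO and 14.07 ± 3.40 in WT, Strn at 10.1 ± 0.988 in KO and 10.97 ± 1.77 in WT, Crk at 6.93 ± 0.772 in KO and 7.28 ± 0.665 in WT, and Tmem65 at 13.3 ± 2.35 in KO and 13.3 ± 4.90 in WT (SD, n = 4 each). Each of these differences was smaller than its SD.

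The let-7 family took 20.4% and 21.5% of miRNA counts in KO 3 and KO 4, and 22.5% and 21.4% in WT 1 and WT 2. Let-7c-5p was the most abundant member, with 8.45% and 10.2% in KO 3 and KO 4 and 9.72% and 9.94% in WT 1 and WT 2. Let-7a-5p had 5.74% and 5.30% in KO 3 and KO 4, against 5.94% and 5.19% in WT 1 and WT 2. The genotypes overlapped for both.

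By edgeR 0 of the 9 members were called, beside 22 of 369 miRNAs (5.96%), and DESeq2 called 0, beside 0.542%. Let-7e-5p had 2361 and 2357 CPM in KO 3 and KO 4 and 3448 and 3186 CPM in WT 1 and WT 2, the member with both KO libraries below both WT libraries. The edgeR estimate on the log2 scale was -0.49 (SE 0.21) at an adjusted p of 0.209, and without KO 3 the adjusted p was 0.0481. Let-7g-5p had 6862 and 4633 CPM in KO and 4801 and 4828 CPM in WT (log2 fold change 0.26, SE 0.20, edgeR adjusted p = 0.664), and without KO 4 the adjusted p was 0.00383. Each of these fits has 1 KO library, which is assumed to vary as the WT pair does, so neither has a replicate check in KO.

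**Figure D5:**
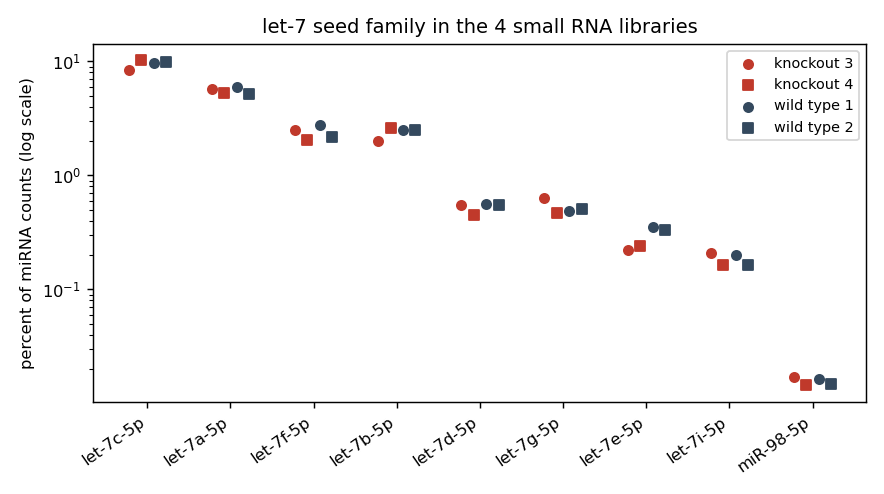
Percent of all miRNA counts (vertical, log scale) for the 9 listed members of the let-7 seed family in the 4 small RNA libraries, KO in red to the left of WT in dark blue. Let-7c-5p leads with 8.45 to 10.2%, and let-7e-5p is the member whose KO points both lie clearly below its WT points.

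AGO2 groups that match the let-7 miRNAs themselves over 20 bases numbered 11 in KO and 12 in WT, with 150499 reads in KO and 124266 in WT, or 2.34% in KO and 1.98% in WT of all reads in listed groups. Let-7g-5p held most of them, with 96865 reads in KO and 83139 in WT, whereas let-7c-5p led the small RNA libraries. Let-7i-5p had 18139 reads in KO and 13472 in WT, and let-7d-5p 16322 in KO and 10584 in WT. Reads that fit several members could be split among them by the counting, so single members are uncertain in both assays.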

How the data were processed

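AGO2 PAR-CLIP, mRNA and small RNA libraries of mouse marrow macrophages were grouped by their labels. The submitters' processing notes name CASAVA 1.8.2, Bowtie 0.12.7 and mm9. For the group caller and gene counter, tool and settings were not given in the sources used here. The authors deposited, per the file headers, read counts and conversion event counts per PAR-CLIP group, counts and RPKM per gene, and counts per miRNA. Every listed group had at least 5 reads, and reads carry no molecular identifiers. Lengths fit closed intervals (end minus start plus 1). It could not be settled if positions count from 0 or 1. Culture was 6 days per the labels' protocols and 7 days per the series design text. One column of the KO 4 small RNA table is headed KO 2 and was not used.

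Let-7 groups were found by their letters, overlaps needed 1 shared base on the same strand, and shares have exact (Clopper-Pearson) 95% intervals. Gene names were matched through the files' names and RefSeq synonyms (25 of 313). Genes were tested on the counts with edgeR 4.0.16 quasi-likelihood fits (R 4.3.3, TMM, filterByExpr, Benjamini-Hochberg adjusted p under 0.05), with DESeq2 1.42.0 as an alternative. CPM is scaled by TMM. RPKM gave levels and was not tested. Fits were tested on simulated data. Deviations of same-numbered mRNA libraries correlated at 0.745 to 0.810, above the minimum of 0.1, so the numbers were taken to pair the libraries, and blocked fits were run; libraries of unequal number within a set reached 0.832. The series design text calls repeats biological, and nothing ties a number to an animal, so a p-value reflects the spread between these libraries, which may be technical.

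Named loci were the 12 highest shared, the 6 largest and 6 smallest ratios with at least 50 reads, the 6 deepest of each genotype alone (1 of KO is not reported here), genes with several loci, and known targets; named mRNAs were those called by any fit, those of smallest blocked p in each direction (8 each), and a few chosen after their values were seen (Txn2, Rab40c, Trub1, Ctsb). The members and gene lists were chosen with earlier results of these data known.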

Additional observations from a re-analysis of the deposited data

Results flagged for a closer look

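In 64 sets of 4 libraries checked, a library far from the other 3 was found in 4, and chance gives about 1 in 20 sets. Thbs1 stood at 31.0 CPM in WT 1, against 103 to 114 CPM in the other WT libraries. Slc10a7 stood at 17.4 CPM in WT 1, against 13.7 to 14.02 in the others. Plagl2 stood at 206 CPM in WT 1, against 130 to 134 in the others. Tet2 stood at 69.2 CPM in KO 2, against 82.3 to 83.6 in the other KO libraries. WT 1 is the library in 3 of the 4 sets. Outside 3′ UTRs, 209 converted coding groups in KO and 235 in WT held a let-7 7mer, with median reads of 25 in KO and 27 in WT. Of these, 31.6% in KO and 31.9% in WT were 8mers, beside 19.2% in KO and 18.2% in WT of the let-7 groups in 3′ UTRs. No interaction of genotype and number set was called among 14019 genes by edgeR, with 133 at an unadjusted p under 0.05, of which 3 were let-7 genes.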

How the results depend on the processing

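The ratio of let-7 group numbers (KO over WT) ran from 0.737 with sites that match bases 2 to 8 (7mer-m8 and 8mer together) to 0.796 with 8mers alone. A minimum of 20 reads in the group looked up lowered the overlap to 62.1% for KO and 45.4% for WT groups, as fewer groups could be met. Scaling to converted 3′ UTR reads moved the median log2 read ratio to -0.034. Blocked DESeq2 called 3 let-7 genes in place of 0, while the edgeR replicate block called 0, as did the other fits; the cause was not tested. Leaving out 1 library at a time gave median log2 fold changes from -0.031 to 0.033 and 0 let-7 genes called in each, and 0 to 1 let-7 miRNAs called, the 1 arising without KO 3 or without KO 4, which leaves a single KO library. Leaving out WT 1 turned the sign of Thbs1 (-0.054), Gpr137b (-0.019) and Lbh (0.029), none of which was called. Of the 16 named mRNAs, 11 moved by over 1.5 times when 1 library was left out of the fit without the block: Thbs1 ran from -0.054 to 0.457, Gpr137b from -0.019 to 0.466, Lbh from -0.534 to 0.029, Igf1 from -0.658 (without WT 1) to -0.106 (without WT 3), Senp5 from -0.438 (without WT 2) to -0.051 (without WT 3), Kpna1 from -0.474 (without WT 2) to -0.120 (without WT 3), Tmpo from -0.461 (without WT 2) to -0.156 (without WT 3), Ggta1 from -0.391 (without WT 2) to -0.138 (without KO 2), Ptafr from 0.253 (without KO 3) to 0.688 (without KO 1), Pdxk from 0.222 (without WT 1) to 0.469 (without WT 3) and Ago4 from 0.287 (without WT 1) to 0.557 (without WT 2). The cause was not tested. Of the single-gene values, 218 kept their side of the threshold and their sign. A minimum of 2 conversion events changed no number. One PAR-CLIP library per genotype limits the group results, and groups under 20 reads are those least often met in both genotypes.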

Other observations

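Some let-7 loci ranked far higher by AGO2 reads than their mRNA did by level, and these were chosen after their values were seen. Cldn12, a claudin of tight junctions, had 80 AGO2 reads in KO and 75 in WT, while its mRNA ranked 305 of 313 let-7 genes by mean RPKM (0.187 ± 0.112 RPKM in KO and 0.167 ± 0.056 in WT, SD, n = 4 each). Stx3 ranked 11 of 338 loci by mean RPM and 255 of 313 genes by mean RPKM, with 2.23 ± 1.53 RPKM in KO and 2.28 ± 1.45 in WT. The DNA methyltransferase gene Dnmt3b had a shallow locus, ranked 196 of 338, with 11 reads in KO and 14 in WT at 0.017 RPKM, the lowest level of the 313 genes. RPM and RPKM are on separate scales, and only the ranks are set side by side.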
